A study of Mus musculus with 8 samples.

Results

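Of the 1978 mature mouse miRNAs listed in the tables, 5 have been tied to the unfolded protein response by earlier work outside these data, and they are described here in all 8 libraries. They are mmu-miR-708-5p and mmu-miR-708-3p, the arms of a hairpin reported as a target of the transcription factor CHOP, mmu-miR-211-5p, reported as a target of PERK and ATF4, its sister mmu-miR-204-5p, and mmu-miR-30c-2-3p, reported to be raised by PERK and NF-κB and to act on the mRNA of XBP1. They were picked by name from this background, with earlier results of these data known.

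The unfolded protein response is set off when unfolded proteins build up in the endoplasmic reticulum, and it runs through the sensors PERK, IRE1 and ATF6. PERK phosphorylates eIF2α, which slows translation in general while the mRNA of ATF4 is translated more, and ATF4 in turn raises CHOP. IRE1 splices the mRNA of XBP1 into the form that codes for the active factor, and PERK signalling is known to be active in differentiating myoblasts.

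C2C12 cells, a mouse skeletal myoblast line, were stable lentiviral lines, selected with puromycin, with a hairpin that targets Perk (shPerk) or a negative control (shNC), and were sampled at day 0 and after 3 days of differentiation. C2C12 cells with the empty vector or with the coding sequence of ATF4 under an EF1α promoter were sampled undifferentiated. P19 cells, a mouse embryonal carcinoma line, carried shNC or shPerk, with no day or induction given in the labels. Each condition had 1 library, so the spread between cultures was not measured, and Perk and Atf4 mRNA are not seen in small RNA, so the knockdown and the overexpression could not be checked here.

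The 4 C2C12 hairpin libraries held between 8800977 and 11993448 miRNA reads, deposited as counts, and the other 4 were deposited as RPM values, reads scaled to a common library total, of unknown depth. Levels from the counts are given as CPM, the same scale computed from each library's miRNA reads. The summed level of miR-1a-3p, miR-133a-3p and miR-206-3p, which mark muscle, was 18920 CPM in shNC cells and 3816 CPM in shPerk cells at day 0, and 87480 CPM and 24250 CPM at day 3. It was 2426 RPM with the vector and 3734 RPM with ATF4. The embryonal carcinoma markers miR-302b-3p, miR-302d-3p, miR-291a-3p, miR-294-3p and miR-295-3p summed to at most 3 reads in any C2C12 hairpin library and were listed at 0 in the vector and ATF4 libraries. In P19 cells the same 5 summed to 154400 RPM in shNC and 348400 RPM in shPerk cells, while the muscle markers summed to 33.3 and 95.1 RPM.

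The mature sequences are shown because they decide which reads can be told apart and which miRNAs share a seed. All 5 had an entry in RefSeq (GRCm38.p6). They are written 5′ to 3′, with the seed, bases 2 to 8, in capitals.
mmu-miR-708-5p: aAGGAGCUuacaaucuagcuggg
mmu-miR-28a-5p: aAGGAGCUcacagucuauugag
mmu-miR-708-3p: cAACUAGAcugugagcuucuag
mmu-miR-204-5p: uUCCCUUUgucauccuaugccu
mmu-miR-211-5p: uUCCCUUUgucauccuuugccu
mmu-miR-30c-2-3p: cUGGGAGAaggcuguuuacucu
mmu-miR-30c-1-3p: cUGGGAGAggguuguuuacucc

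miR-204-5p and miR-211-5p shared their seed and 21 of 22 bases, with the substitution A17U from miR-204-5p to miR-211-5p, counted from 1 at the 5′ end. miR-708-5p shared its seed with miR-28a-5p and matched it at 16 of 22 positions. miR-30c-2-3p shared its seed with miR-30c-1-3p, from which it differed at 3 of 22 positions (A9G, C12U and U22C). The remaining seed mates, miR-7670-3p and miR-6958-5p, had at most 2 reads in any hairpin library, and miR-708-3p had no seed mate in RefSeq. How the authors assigned reads that match more than 1 miRNA is not stated, so the split between miR-204-5p and miR-211-5p rests on a single base.

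By the GENCODE annotation of GRCm38, Mir708 lies at chr7:96249424-96249532 on the plus strand, in an intron of Tenm4, a teneurin gene. Mir211 lies on the same chromosome at chr7:64205806-64205911 on the plus strand, in an intron of Trpm1, and Mir204 at chr19:22750605-22750672 on the plus strand, in an intron of Trpm3, both genes for ion channels. Mir30c-2 lies at chr1:23291701-23291784 on the plus strand, in an exon of the lincRNA Gm27028. Its relative Mir30c-1 lies at chr4:120769534-120769622 on the minus strand, in an intron of Nfyc.

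The promoters of the 3 protein-coding host genes, 6 windows from 250 bases before to 50 bases after a start, were searched on both strands for elements bound in the unfolded protein response. None held TGATGNAA, the composite element of C/EBP and ATF factors, which 3.97% of the 32851 promoters in the RefSeq table hold. None held the unfolded protein response element TGACGTGG or the longer endoplasmic reticulum stress element (ERSE), which 0.676% and 0.119% of all promoters hold. These letters were therefore not in these windows, and nothing outside them was searched.

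Of the 40 values that 5 miRNAs in 8 libraries could give, 25 were readable, 8 rested on 3 reads or fewer, 1 was listed at 0 and 6 had no row. The floor of 3 reads could be applied to counts only. Any RPM value above 0 was taken as readable, since the depth of those libraries is unknown. miR-708-3p, miR-204-5p and miR-211-5p had no row in the table of the vector and ATF4, in which every miRNA listed reached at least 1.04 RPM in one of the libraries. miR-211-5p was too low to read in the 4 C2C12 hairpin libraries.

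**Figure D1:**
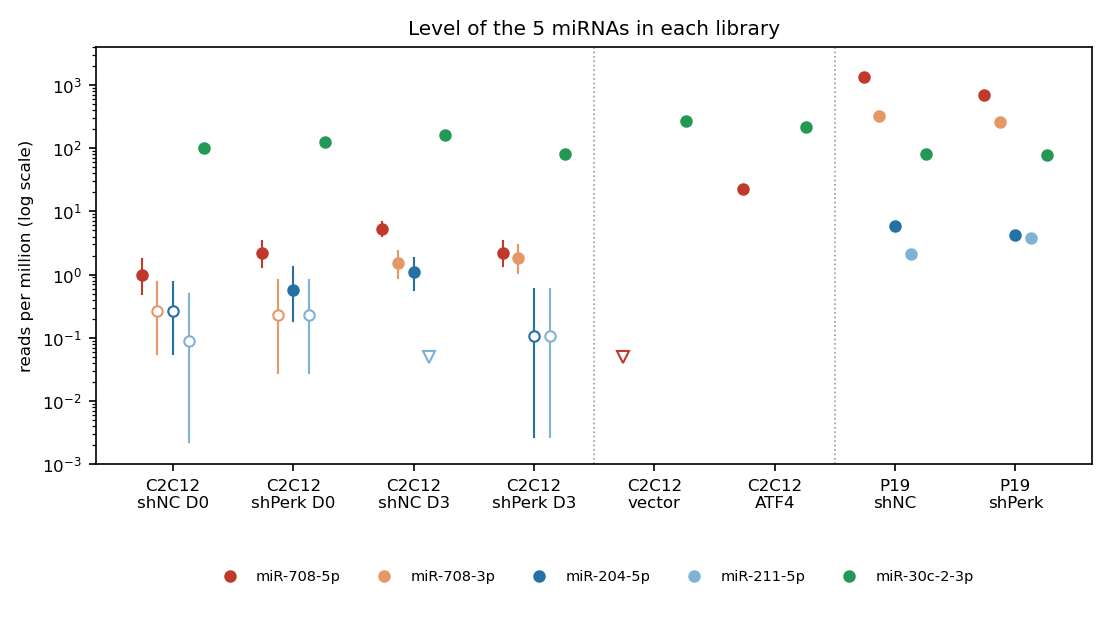
Level of the 5 miRNAs in each library, in CPM (counts) or RPM on a log axis, with 95% exact Poisson intervals as lines where counts were deposited and open circles for 3 reads or fewer. Triangles mark values at 0, in counts or RPM, drawn at an arbitrary height with no circle or interval. The reader should see miR-708-5p at 1348.02 and 707.67 RPM in P19 cells against at most 5.34 CPM in the C2C12 hairpin libraries.

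miR-708-5p, the arm of Mir708 that is usually the more abundant, was a low miRNA in C2C12 cells. At day 0 it had 11 reads with shNC and 19 with shPerk, and at day 3 it had 64 reads with shNC and 21 with shPerk. In CPM and in that order these are 0.972 (95% exact Poisson interval 0.485 to 1.74), 2.16 (1.30 to 3.37), 5.34 (4.11 to 6.81) and 2.23 (1.38 to 3.41). The shNC library of day 3 stood above the other 3, whose intervals overlapped. Intervals cover counting error only, and they treat reads as independent molecules, which amplified reads are not.

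The vector library lists miR-708-5p at 0, and the ATF4 library at 22.27 RPM. The lowest values above 0 in these libraries were 1.04 and 1.07 RPM, so the listed 0 need not mean absence. In P19 cells it was at 1348.02 RPM in shNC and 707.67 RPM in shPerk cells. There it ranked at place 117 of 686 miRNAs above 0 in shNC and 113 of 690 in shPerk cells, against places 365 to 573 in the C2C12 hairpin libraries. The tables were normalized separately, so levels across them are set side by side only.

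miR-708-3p, the other arm, had 3 reads with shNC and 2 with shPerk at day 0, and 18 and 17 reads at day 3. Those of day 3 equal 1.501 (0.890 to 2.37) and 1.803 (1.05 to 2.89) CPM and their intervals overlap. In P19 cells miR-708-3p was at 325.67 RPM in shNC and 261.17 RPM in shPerk cells. Both arms of Mir708 thus had their highest listed values in P19 cells.

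miR-204-5p, a miRNA best known from the retinal pigment epithelium, had 3 reads with shNC and 5 with shPerk at day 0, and 13 reads and 1 read at day 3. In P19 cells it was at 5.94 RPM in shNC and 4.26 RPM in shPerk cells. miR-211-5p, best known from melanocytes, had 1 read and 2 reads at day 0, and 0 reads and 1 read at day 3, for shNC and shPerk in that order. The floor taken for a count of 0, which is 3 reads, equals 0.250 CPM in the shNC library of day 3, and the exact Poisson interval of 0 reads reaches 0.308 CPM there. In P19 cells miR-211-5p was at 2.15 RPM in shNC and 3.81 RPM in shPerk cells. The opposite arms miR-204-3p and miR-211-3p had 0 reads in all 4 hairpin libraries, and neither had a row in the RPM tables.

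miR-30c-2-3p was the only one of the 5 with over 100 reads in any C2C12 hairpin library, and it had them in all 4. At day 0 it had 1152 reads with shNC and 1099 with shPerk, and at day 3 it had 1915 with shNC and 773 with shPerk. In CPM and in that order these are 101.7 (95.96 to 107.8), 124.9 (117.6 to 132.5), 159.7 (152.6 to 167.0) and 81.99 (76.31 to 87.98), and no interval overlapped another. It was at 266.13 RPM with the vector, 218.38 RPM with ATF4, 80.6 RPM in P19 shNC and 78.53 RPM in P19 shPerk cells. Side by side, and unlike miR-708-5p, it had lower values in P19 cells than with the vector or ATF4.

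The comparisons ask what PERK knockdown and ATF4 did to these miRNAs in undifferentiated and differentiating cells. In the count tables a miRNA was called when its TMM-scaled log2 fold change was beyond 1 and its reads passed an exact binomial test (two-sided) at an adjusted p of 0.05, with Benjamini-Hochberg adjustment over all miRNAs tested. That test compares libraries and not conditions. Ratios and intervals given beside reads are TMM-scaled too, so they differ from the plain ratio of those reads. In the RPM tables a call is a log2 fold change beyond 1, with no test. The fold limit without the test picked the same members in each comparison.

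At day 0, miR-708-5p was higher in the shPerk library, at 19 reads against 11, with a log2 fold change of 1.27 (95% interval from the reads 0.14 to 2.50, adjusted p = 0.035). It was the only member called, and 1 of the 2 tested was higher and none lower, where 15.4% of the 602 miRNAs tested were called higher and 18.4% lower. It passed the filter of 1 CPM only through the shPerk library, and the call was lost with libraries scaled to their totals and at each assumed coefficient of variation between cultures (0.1, 0.2 and 0.4). miR-30c-2-3p differed by 0.43 (0.31 to 0.55, adjusted p = 5.3e-12), short of the fold limit. The counts of the other 3 members, 5 reads or fewer, were under the filter.

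At day 3, miR-708-5p was lower with shPerk, at 21 reads against 64. Its log2 fold change was -0.92 (-1.71 to -0.20, adjusted p = 0.014), inside the fold limit with TMM scaling and beyond it with totals (-1.26) or the upper quartile (-1.03). miR-30c-2-3p was also lower, at 773 reads against 1915, with a log2 fold change of -0.63 (-0.75 to -0.51, adjusted p = 2.3e-25). miR-708-3p was at 0.59 (-0.45 to 1.64, adjusted p = 0.28), an interval that includes 0.

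The member called at day 3 was miR-204-5p, at 1 read with shPerk against 13 with shNC, a ratio of 0.123 with a log2 interval of -8.43 to -0.29 (adjusted p = 0.020). It passed the filter only through the shNC library, at 1.08 CPM, and the call was lost at an assumed coefficient of variation of 0.2 or 0.4. Of the 4 members tested, none was called higher and 1 lower, where 21% of the 575 miRNAs tested were called higher and 20.7% lower (121 and 119 with TMM scaling, 83 and 160 with totals). The muscle markers were lower in the shPerk library at both days, and their part in these differences was not tested.

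The knockdown differences of the 2 days ran in opposite directions for miR-708-5p and miR-30c-2-3p, the members with more than 3 reads in all 4 hairpin libraries. The log2 difference of day 3 minus that of day 0 was -2.21 (95% interval -3.50 to -0.93) for miR-708-5p. For miR-30c-2-3p it was -1.06 (-1.23 to -0.89). Both intervals lay below 0, and they cover counting error only.

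During differentiation of shNC cells, miR-708-5p rose from 11 to 64 reads, by 2.71 on the log2 scale (1.79 to 3.80, adjusted p = 1.9e-11). miR-708-3p rose from 3 to 18 reads, a ratio of 6.81 with a log2 interval of 0.99 to 5.17 (adjusted p = 5.8e-04). miR-204-5p rose from 3 to 13 reads, a ratio of 4.92 with a log2 interval of 0.43 to 4.75 (adjusted p = 0.016). miR-30c-2-3p was at 0.92 (0.81 to 1.02, adjusted p = 1.4e-66), just inside the fold limit.

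Of the 4 members tested in shNC cells, 3 were called higher and none lower, where 12% of the 593 miRNAs tested were called higher and 14.2% lower (71 and 84 with TMM scaling, 48 and 129 with totals, 58 and 105 with the upper quartile). All 3 passed the filter only through the library of day 3, in which they were high, so the count gives no support. At an assumed coefficient of variation of 0.2 the call of miR-204-5p was lost, and at 0.4 all 3 were. The muscle markers were higher in the library of day 3 too, and their part in these changes was not tested.

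In shPerk cells, miR-708-5p was at 19 reads at day 0 and 21 reads at day 3, which is 0.40 on the log2 scale (-0.56 to 1.38, adjusted p = 0.49). miR-708-3p rose from 2 to 17 reads, a ratio of 10.2 with a log2 interval of 1.27 to 6.50 (adjusted p = 2.0e-04). miR-30c-2-3p went from 1099 to 773 reads, or -0.25 on the log2 scale (-0.38 to -0.11, adjusted p = 4.8e-04), where the value in shNC cells was positive. miR-708-3p passed the filter only through the library of day 3 and lost its call at an assumed coefficient of variation of 0.4, and miR-204-5p, with 5 reads and 1 read, did not pass it. miR-211-5p passed it in none of the 4 comparisons of C2C12 hairpin libraries. Of the 3 members tested, 1 was called higher and none lower, where 15.4% of the 573 miRNAs tested were called higher and 14% lower (88 and 80 with TMM scaling, 48 and 150 with totals). The knockdown and the differentiation comparisons share libraries and are not separate evidence.

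For ATF4 against the vector, the levels of miR-708-5p were 22.27 and 0 RPM, and no fold is given against a value listed at 0. It had the highest level with ATF4 among the 23 miRNAs listed at 0 with the vector, and the next, miR-135b-5p, was at 6.74 RPM. miR-30c-2-3p was at 218.38 RPM against 266.13 RPM, a log2 fold change of -0.22. Of the 2 members with a row, 1 was called higher and none lower, where 14.5% of the 605 miRNAs were called higher and 8.93% lower (88 and 54 with TMM scaling, 53 and 124 with the upper quartile). The called member, miR-708-5p, passed the filter only through the ATF4 library, in which it was high. Its call also rests on the 1 RPM set in place of the 0 with the vector, so the count gives no support.

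In P19 cells, miR-211-5p was at 3.81 RPM with shPerk against 2.15 RPM with shNC, a log2 fold change of 1.43 after TMM scaling, and both values lay near the lowest values listed, 1.01 and 1.12 RPM. miR-708-5p, at 707.67 RPM with shPerk against 1348.02 RPM with shNC, had a log2 fold change of -0.32 with TMM scaling and -0.93 with totals. miR-708-3p was at 0.29, miR-204-5p at 0.13 and miR-30c-2-3p at 0.57, and all 3 turned negative when libraries were scaled to their totals (-0.32, -0.48 and -0.04). Total scaling moved the median of all miRNAs to -0.65, and the embryonal carcinoma markers were at 348400 RPM with shPerk against 154400 RPM with shNC. Their part in the shift was not tested.

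Of the 5 members in P19 cells, 1 was called higher and none lower, where 17.7% of the 696 miRNAs were called higher and 17.7% lower (123 and 123 with TMM scaling, 46 and 247 with totals). With totals miR-211-5p was at 0.83 and no member was called. The direction was negative for miR-708-5p and positive for miR-211-5p under each of the 4 scalings.

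**Figure D2:**
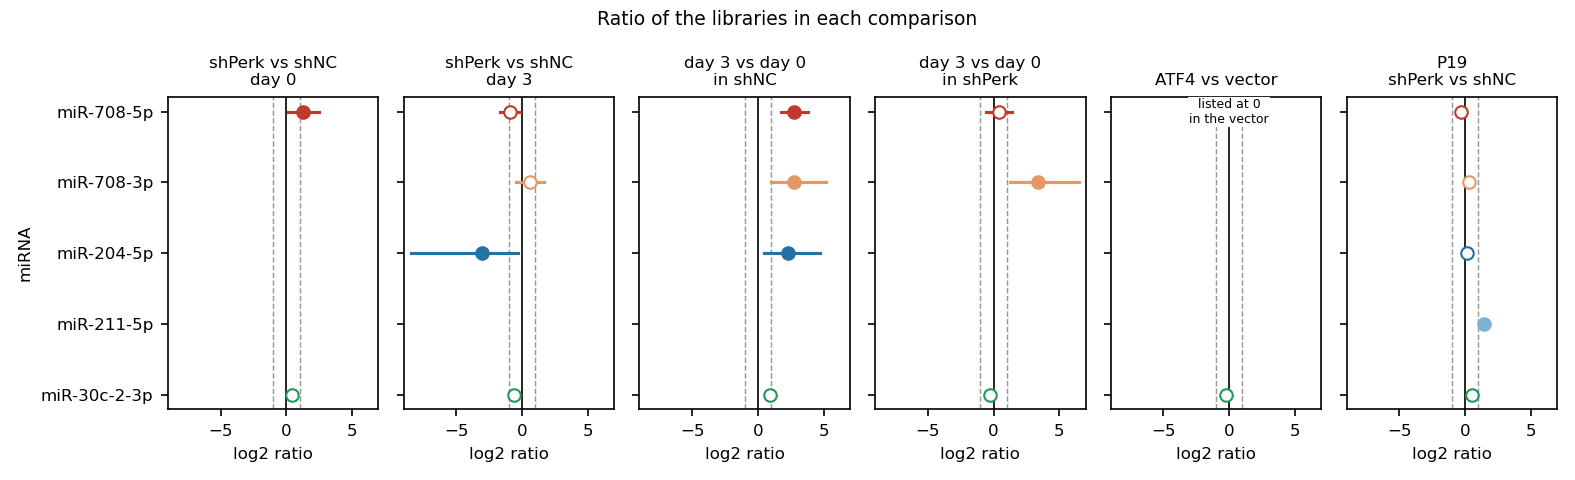
Log2 ratio of the libraries in each comparison, 1 row for each miRNA, with 95% intervals from the reads where counts were deposited, filled circles for calls and dashed lines at the fold limit. Ratios are TMM-scaled, without the prior count that enters the log2 fold changes of the count tables. The reader should see miR-708-5p to the right of 0 at day 0 (1.29) and to the left at day 3 (-0.93), and the wide intervals of miR-204-5p.

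The share of Mir708 reads on the 5p arm does not depend on how libraries are scaled. It was 78.6% (95% Clopper-Pearson interval 49.2 to 95.3, 14 reads) in shNC and 90.5% (69.6 to 98.8, 21 reads) in shPerk cells before differentiation. After 3 days it was 78.1% (67.5 to 86.4, 82 reads) in shNC and 55.3% (38.3 to 71.4, 38 reads) in shPerk cells. In P19 cells it was 80.5% in shNC and 73.0% in shPerk cells. The 5p arm thus had the larger share in all 6 libraries, least so in shPerk cells at day 3, where the interval overlapped that of shNC cells. Equal use of the arms lay inside that interval and inside the interval of shNC cells at day 0.

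The 3p reads of miR-30c can be assigned to Mir30c-2 or Mir30c-1, while miR-30c-5p is the same sequence from both genes. The share from Mir30c-2 was 85.1% (83.1 to 87.0) in shNC and 87.9% (85.9 to 89.6) in shPerk cells at day 0, and 93.5% (92.3 to 94.5) and 91.9% (89.9 to 93.7) at day 3. It was 90.0% with the vector, 90.2% with ATF4, and 62.1% in P19 shNC and 66.3% in P19 shPerk cells. Mir30c-2 was thus the main source in each library, by a larger margin in C2C12 than in P19 cells.

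During differentiation of shNC cells the 3p arms of the 2 genes moved in opposite directions, and the shares at day 0 and day 3 given above have intervals that do not overlap. miR-30c-1-3p went from 201 to 134 reads, or -0.40 on the log2 scale (-0.73 to -0.08, adjusted p = 0.022), where miR-30c-2-3p was at 0.92. In shPerk cells both were lower at day 3, with miR-30c-1-3p at -0.90 (-1.34 to -0.48) and miR-30c-2-3p at -0.25. miR-30c-5p, from both genes, went from 79916 to 123728 reads, or 0.81 on the log2 scale (0.80 to 0.83). With shPerk at day 3, miR-30c-5p was at -0.37 (-0.39 to -0.36), the direction of miR-30c-2-3p. miR-30c-2-3p made up between 1.28% and 1.52% of the reads of both in the hairpin libraries, so most reads lay on the 5p arm, which cannot be split between the genes.

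**Figure D3:**
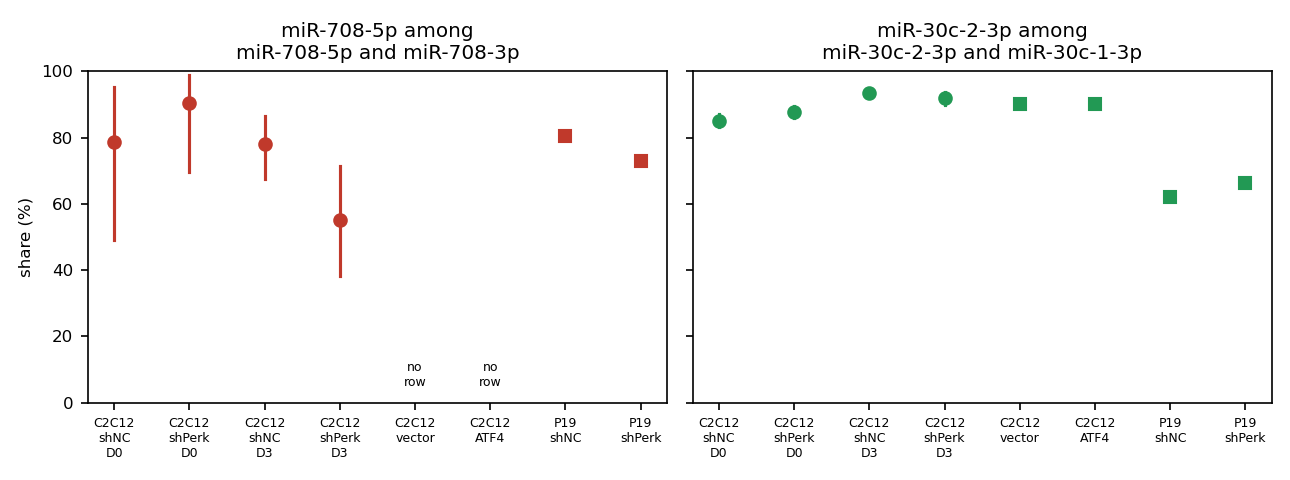
Share in percent of miR-708-5p among the reads of both Mir708 arms (left) and of miR-30c-2-3p among the 3p reads of both miR-30c genes (right) in each library, with 95% Clopper-Pearson intervals for counts (circles) and no interval for RPM (squares). The reader should see 55.3% for miR-708 in shPerk cells at day 3 against 78.1% in shNC cells, and the miR-30c share near 62.1% and 66.3% in P19 cells against 85.1% or more in C2C12 cells.

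The seed of miR-708-5p, shown above, was carried in C2C12 cells mostly by miR-28a-5p. miR-28a-5p had 5080 and 2613 reads at day 0 and 5127 and 2380 reads at day 3, for shNC and shPerk in that order, so that miR-708-5p made up between 0.216% and 1.23% of the reads of the 2. The share was 5.03% with ATF4 and 0% with the vector, where miR-708-5p was listed at 0. miR-28a-5p was at 420.49 RPM with ATF4 and 672.42 RPM with the vector. In P19 cells, with miR-28a-5p at 124.68 and 106.35 RPM, miR-708-5p made up 91.5% in shNC and 86.9% in shPerk cells. With shPerk at day 0 miR-28a-5p was at -0.46 (-0.53 to -0.39) on the log2 scale, an interval apart from that of miR-708-5p. At day 3 it was at -0.43 (-0.50 to -0.36), which lies inside the interval of miR-708-5p.

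The miRNAs closest to miR-708-5p by Pearson's r of log2(CPM or RPM + 1) over the 8 libraries, among 370 with a mean of at least 10, were miR-669o-5p (r = 0.989), miR-467b-5p and miR-467a-5p (both 0.986). The last pair had equal values in every library. The same 3 were closest to miR-708-3p over 6 libraries (0.999, 0.998 and 0.998). These values rest largely on the high level of the P19 libraries, which share a table. Closest to miR-30c-2-3p were miR-99b-5p (0.884), miR-191-3p and miR-221-5p (both 0.88). They are descriptions, with no p.

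A further 25 miRNAs reported in the unfolded protein response, chosen with earlier results of these data known, were counted beside the 5. With shPerk at day 0, 3 of the 22 tested were higher and 3 lower, where 15.4% and 18.4% of all miRNAs tested were, and their median log2 fold change was 0.01 against -0.06 for all miRNAs tested. They included miR-181a-5p, reported to target the chaperone GRP78, from 7373 to 16171 reads (1.63), and miR-96-5p, from 22756 to 5034 reads (-1.68). miR-96-5p was not called at day 3 (0.10), and it was called higher with shPerk in P19 cells (2.13). Among the 3 lower at day 0, miR-483-3p rested on few reads, from 16 to 3. At day 3, 4 of 23 were higher and 6 lower, where 21% and 20.7% of all were, with a median of -0.06 against 0.01. miR-503-5p, a miR-16 relative that slows the cell cycle, had the lowest value at day 3, from 10138 to 939 reads (-2.75), and miR-455-5p the highest, from 709 to 1858 reads (2.07).

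During differentiation of shNC cells, 5 of 23 were higher and 1 lower, where 12% and 14.2% of all were, with a median of 0.40 against -0.04. The 5 higher were miR-181a-5p, the cluster mates miR-322-5p and miR-503-5p, and both arms of miR-483. The arms of miR-483 rested on few reads, 16 to 64 for miR-483-3p and 5 to 19 for miR-483-5p. miR-483-5p passed the filter only through the library of day 3. In shPerk cells, 3 of 22 were higher and 4 lower, where 15.4% and 14% of all were, with a median of -0.04 against -0.05. With ATF4, none of the 21 with a row was called with TMM scaling, where 14.5% of all were higher and 8.93% lower. Their median was 0.07 against 0.00, and the values ran from -0.67 for miR-17-5p to 0.83 for miR-322-5p. The upper quartile moved the median of all miRNAs with ATF4 to -0.38, and the list was not counted with that scaling. In P19 cells, 5 of 25 were higher and 2 lower with TMM scaling, where 17.7% of all were in each direction. Their median was 0.17 against -0.04, and miR-455-5p was the highest (87.29 to 260.05 RPM, 2.18). The 5 higher included low values, miR-483-5p (2.15 to 4.04 RPM) and miR-199a-5p (9.6 to 16.16 RPM). Totals moved the median of all miRNAs in P19 cells to -0.65, and the list was not counted with totals. miR-181a-5p was called higher with shPerk at both days in C2C12 cells, and miR-455-5p was called lower at day 0 and higher at day 3, as -1.08 and 2.07.

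**Figure D4:**
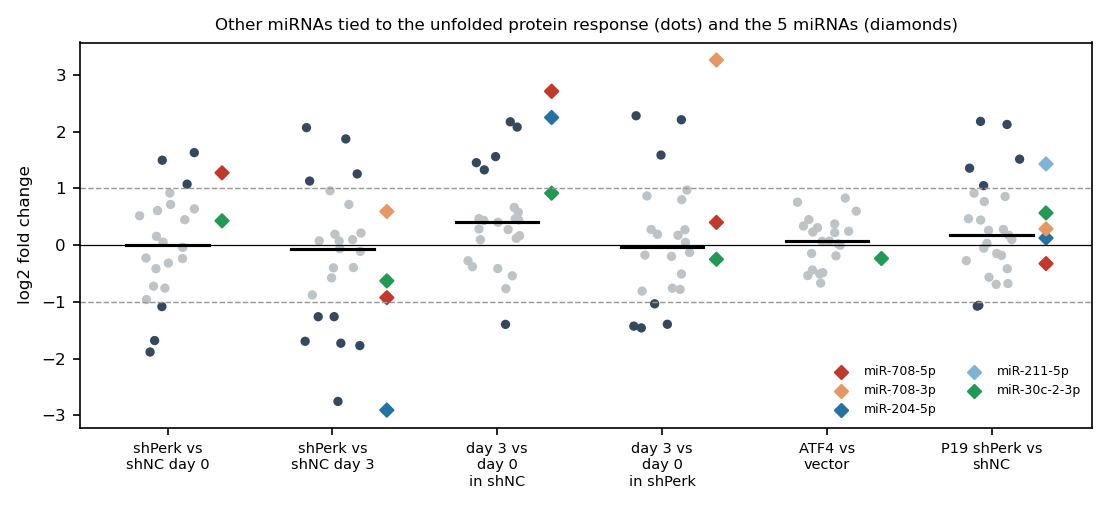
Log2 fold change of the 25 other miRNAs tied to the unfolded protein response (dots, dark when called, with the median as a bar) and of the 5 miRNAs (diamonds) in each comparison, with dashed lines at the fold limit. miR-708-5p with ATF4 has no diamond because it was listed at 0 with the vector, and the diamonds of miR-708-5p and miR-708-3p coincide at 2.71 in shNC differentiation. All values and calls are with TMM scaling, with which the reader should see no dark dot for ATF4.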

How the data were processed

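Small RNA of 8 libraries, 1 per condition, was analysed. The authors had the reads annotated with bowtie, whose version is not given in the sources used here, and the labels name mm10 and GRCm38. The authors deposited raw read counts per mature miRNA, in 3 tables, for the C2C12 cells with hairpins. They deposited RPM values, scaled to the miRNA reads of a library, for the ATF4 and P19 pairs, from which whole reads could not be recovered. Columns of the authors' fold changes and p-values were not used.

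The members and lists were chosen with earlier results of these data known. A miRNA entered a comparison when it reached 1 CPM or RPM in either library. Log2 fold changes used edgeR's TMM factors and default prior count. With 1 library per group edgeR's quasi-likelihood test cannot be fitted, so a two-sided exact binomial test on reads was used, which compares libraries only. RPM values at 0 were set to 1 RPM and no test was run, although counts had been planned for. Intervals are 95% Clopper-Pearson or exact Poisson, and for the difference of the days a normal approximation on the log2 scale. Named miRNAs are the members, their opposite arms and seed mates, the list of 25 where called or at its ends, and the 3 closest by Pearson's r, and miR-135b-5p was named after its value was seen. The fit of count pairs was checked on simulated data with counting noise only, which cannot show how calls behave under spread between cultures. The depth was 8800977 to 11993448 reads in the count libraries.

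Alternatives were total, median-of-ratios (DESeq2) and upper-quartile scaling, no filter or one at 10 CPM or RPM, a prior count of 2, the exact test of edgeR with the coefficient of variation assumed to be 0.1, 0.2 or 0.4, unadjusted p, RPM at 0 set to 0.5, and log2(RPM + 1). Tools were Python 3.11.15, scipy 1.17.1, R 4.3.3, edgeR 4.0.16 and DESeq2 1.42.0.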

Additional observations from a re-analysis of the deposited data

Results flagged for a closer look

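The difference of the shPerk and shNC libraries in miR-708-5p was not the same on the 2 days. Day 3 minus day 0 was -2.21 on the log2 scale, judged by its counting interval and with no p. Judged in the same way, the value was -1.06 for miR-30c-2-3p. Replicates are absent, so neither has a check beyond counting error.

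The difference of the shPerk and shNC libraries in miR-708-5p also had opposite signs in P19 cells and in C2C12 cells at day 0. P19 minus C2C12 was -1.60 on the log2 scale. This difference was not tested, and at day 3 the C2C12 value had the sign of the P19 value.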

How the results depend on the processing

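No paired analysis was possible because each group had 1 library and the labels give no replicate numbers, and no library could be left out. Of 174 values of the members under the alternatives, 155 kept their direction and call, not counting members that a filter removed: at 10 CPM or RPM only miR-30c-2-3p was tested in the hairpin libraries, and no member was called there or in P19 cells. With totals, miR-708-5p lost its call at day 0 (1.14) and gained it at day 3 (-1.26; -1.03 with the upper quartile), and in P19 cells miR-211-5p lost it (0.83) while miR-708-3p (-0.32), miR-204-5p (-0.48; -0.014 with the upper quartile) and miR-30c-2-3p (-0.038) reversed. Without the filter miR-30c-2-3p was called in shNC differentiation (1.01). At an assumed coefficient of variation of 0.1, 0.2 or 0.4 the call of miR-708-5p at day 0 (1.27) was lost, at 0.2 and 0.4 also those of miR-204-5p at day 3 (-2.91) and in shNC differentiation (2.25), and at 0.4 those of miR-708-5p (2.71) and miR-708-3p (2.71) in shNC and of miR-708-3p (3.26) in shPerk differentiation.

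Of 54 counts of miRNAs called, 44 stayed within 1.5 times. With a filter of 10 CPM or RPM the counts were 126 at day 0 (204 before), 90 (155) in shNC and 104 (168) in shPerk differentiation, and 89 (142) with ATF4. At a coefficient of 0.4 they were 56 at day 0, 51 (240) at day 3, 7 in shNC and 1 in shPerk differentiation, and at 0.2 they were 93 in shNC and 103 in shPerk differentiation. Shares of arms and genes do not depend on these choices. Depth limits miR-204-5p, miR-211-5p and miR-708-3p in C2C12 cells, and RPM libraries carry no interval.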
